A study of Mus musculus with 8 samples.

Results

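The genes described here are 9 mouse genes for antibody receptors, TREM receptors and the signalling adaptors they use: Fcgr1, Fcgr2b, Fcgr3, Fcgr4, Fcer1g, Fcgrt, Tyrobp, Trem1 and Trem2. They were chosen by name, as the array's probes, controls aside, whose printed gene name is one of these symbols. Each gene had 1 such probe, so the set is 9 of 55681 probes, or 9 of the 34787 gene names those probes carry. RNA was measured on 8 Agilent 1-colour arrays, in which Cy3-labelled RNA binds short DNA probes and a scanner reads the brightness of each spot. There were 4 groups of 2 arrays, all from bone marrow of B6.Cg-Tg mice with the CAG-DsRed*MST transgene (line 1Nagy/J), a red fluorescent protein under the broadly active CAG promoter. Control macrophages were grown for 7 days with M-CSF, the macrophage growth factor, and left in control medium. The IL-4 and LPS groups were such macrophages given interleukin-4 or lipopolysaccharide, a component of bacterial walls, for 24 hours. Colony cells were bone marrow cells kept for 7 days on a monolayer of endothelial cells in a medium for haematopoietic stem cells, so their substrate and medium both differ from those of the macrophages. The labels give neither age nor sex. Whether paired samples are different mice or dishes is not stated, so p-values measure only the spread between these samples, which may be technical. Nor is it stated whether endothelial cells were still present when RNA was extracted.

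Fc gamma receptors bind the constant part of IgG, and let a macrophage take up and respond to antibody-coated particles. Fcgr1, Fcgr3 and Fcgr4 are activating receptors. They depend on the common gamma chain encoded by Fcer1g, whose activation motif (ITAM) recruits the kinase Syk once its tyrosines are phosphorylated. Fcgr2b instead carries an inhibitory motif (ITIM) in its own tail and recruits the phosphatase encoded by Inpp5d, so the ratio of Fcgr2b to the activating receptors is known to set how readily immune complexes trigger a cell. Trem1 and Trem2 have no signalling motif of their own and pair with Tyrobp (DAP12), another ITAM adaptor. Trem1 is known as an amplifier of inflammatory responses, and Trem2 as a receptor for lipids and cell debris. Fcgrt encodes the heavy chain of the neonatal Fc receptor, which pairs with beta-2 microglobulin (B2m) inside the cell and returns IgG and albumin to the surface in place of their degradation.

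Levels in these data are those of single probes of 60 bases, and 3 of them are shown because they lie in coding sequence and define what was read. They are written 5′ to 3′ on the RNA strand. In the Tyrobp probe the capitals mark the codons of a tyrosine motif, which is the first of the pair that forms the ITAM.
Tyrobp: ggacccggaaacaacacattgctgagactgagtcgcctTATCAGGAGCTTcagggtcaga
Fcgr3: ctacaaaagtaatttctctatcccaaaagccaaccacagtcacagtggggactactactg
Fcgrt: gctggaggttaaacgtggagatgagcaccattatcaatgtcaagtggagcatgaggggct
The scanner files place the Tyrobp probe at chr7:31200651-31202378 of mouse build mm9 on the plus strand, a span of 1728 bases, so that the probe bridges a gap in the genome. The Fcgr3 probe (chr1:172984129-172984188, minus strand) lies in the part that encodes the receptor outside the cell, which in mice is nearly identical in Fcgr2b. Binding of Fcgr2b RNA to that probe was not tested. The Fcgrt probe was placed at chr7:52350556-52350615 on the minus strand. Of the other 6, the file places Fcgr2b at chr1:172890988-172891047, Fcer1g at chr1:173159794-173159853 and Fcgr1 at chr3:96086839-96086898, all on the minus strand. Fcgr4 lies at chr1:172959738-172959797, Trem1 at chr17:48385849-48385908 and Trem2 at chr17:48491537-48491596, on the plus strand. The probes of Fcgr2b, Fcgr4, Fcgr3 and Fcer1g thus fall within 269 kb of chromosome 1, and those of Trem1 and Trem2 within 106 kb of chromosome 17. Exon and UTR annotation of that build was not used here.

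Promoter sequence is shown for 4 members, because their windows share a short motif. RefSeq windows (GRCm38.p6) matched 8 of the 9 members, all but Tyrobp. In each, 250 bases before the start were searched on both strands for 4 motifs. Capitals below mark CTTCCTC, the reverse complement of GAGGAAG, a core bound by the myeloid factor PU.1.
Fcgr1: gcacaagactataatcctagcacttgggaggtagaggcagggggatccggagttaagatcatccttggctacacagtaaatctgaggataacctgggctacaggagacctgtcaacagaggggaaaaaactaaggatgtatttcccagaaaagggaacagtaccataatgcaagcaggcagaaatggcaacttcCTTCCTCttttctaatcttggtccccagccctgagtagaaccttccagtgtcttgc
Fcgr4: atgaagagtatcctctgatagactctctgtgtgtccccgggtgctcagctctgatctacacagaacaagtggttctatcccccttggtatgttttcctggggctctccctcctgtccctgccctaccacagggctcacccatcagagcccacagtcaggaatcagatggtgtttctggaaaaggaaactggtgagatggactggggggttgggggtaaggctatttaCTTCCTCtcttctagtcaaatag
Fcgr3: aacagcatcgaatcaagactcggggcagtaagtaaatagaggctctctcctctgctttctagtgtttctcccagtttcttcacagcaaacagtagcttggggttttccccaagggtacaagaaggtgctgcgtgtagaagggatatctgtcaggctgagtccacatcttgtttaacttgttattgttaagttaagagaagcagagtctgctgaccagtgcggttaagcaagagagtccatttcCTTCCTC
Trem2: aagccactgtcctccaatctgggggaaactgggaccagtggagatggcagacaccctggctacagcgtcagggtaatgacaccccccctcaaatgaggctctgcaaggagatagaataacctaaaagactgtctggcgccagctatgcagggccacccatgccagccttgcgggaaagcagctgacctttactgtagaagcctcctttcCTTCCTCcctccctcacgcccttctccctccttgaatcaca
In GRCm38.p6 these windows are chr3:96293970-96294219 on the minus strand for Fcgr1, chr1:171018676-171018925 on the plus strand for Fcgr4, chr1:171059404-171059653 on the minus strand for Fcgr3 and chr17:48346151-48346400 on the plus strand for Trem2. CTTCCTC begins 56 bases before the start in Fcgr1, 23 in Fcgr4, 7 in Fcgr3 and 41 in Trem2. RefSeq gives Fcgr3 another start, in whose window it begins 16 bases before. The windows of Fcgr2b, Fcer1g, Fcgrt and Trem1 did not hold it. Of 32851 such windows, 10.6% hold GAGGAAG on either strand. A match is only a description of the letters. No member's window held the STAT6-type motif, TTC and GAA with 4 bases between (5.85% of windows), the NF-kB-type motif, GGGA and TTTCC around any base (0.356%), or TATAAA (12.4%).

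Each level below is the log2 of a probe's signal over the 75th percentile of signal on its array, and each difference is a difference of group means on that log2 scale with its SE from limma, which was fitted over 26514 genes. Genes with a Benjamini-Hochberg adjusted p under 0.05 are called. The 9 probes were well above background on all 8 arrays, and no spot of theirs was saturated or left out. Between 62.4% and 72.2% of all spots were well above background, the highest being LPS replicate 2, and the 2 arrays of a group correlated at r from 0.986 (LPS) to 0.997 (IL-4) over all genes. All arrays lay on 1 slide read in 1 scan. Centring arrays on the median in place of the 75th percentile moved the median of all genes from 0.08 to -0.11 for LPS against control and from -0.35 to -0.50 for colony cells against control. That setting also moved the share of called genes that were higher with LPS from 53.3% to 39.3%, and in IL-4 against LPS from 48.9% to 64.2%. In the authors' deposited table those shares were 38.5% and 66.1%, and with normexp background correction the LPS share was 43.1%. With 2 arrays on each side, the smallest two-sided p of an exact permutation test is 0.333. In bulk RNA, fewer cells of a type and less RNA per cell cannot be told apart.

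LPS moved all 9 genes: 4 rose (Fcgr1, Fcgr2b, Fcgr4 and Fcer1g) and 5 fell (Fcgr3, Fcgrt, Tyrobp, Trem1 and Trem2). Of all genes tested, 29% were called higher and 25.5% lower with LPS. IL-4 moved 4: Fcgr2b rose, Fcgr1, Fcgr4 and Fcgrt fell, and the other 5 did not pass. The background for IL-4 was 9.88% of genes higher and 8.96% lower. Colony cells stood below control macrophages in 8 genes and above them in 1, Fcgr2b, against 24.7% of genes called higher and 46.6% called lower. The members' median difference was -0.34 with LPS, -0.28 with IL-4 and -3.06 in colony cells, beside medians of 0.08, -0.01 and -0.35 over all genes tested. The 3 comparisons share the control arrays, so their values are set side by side and are not independent of each other.

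**Figure D1:**
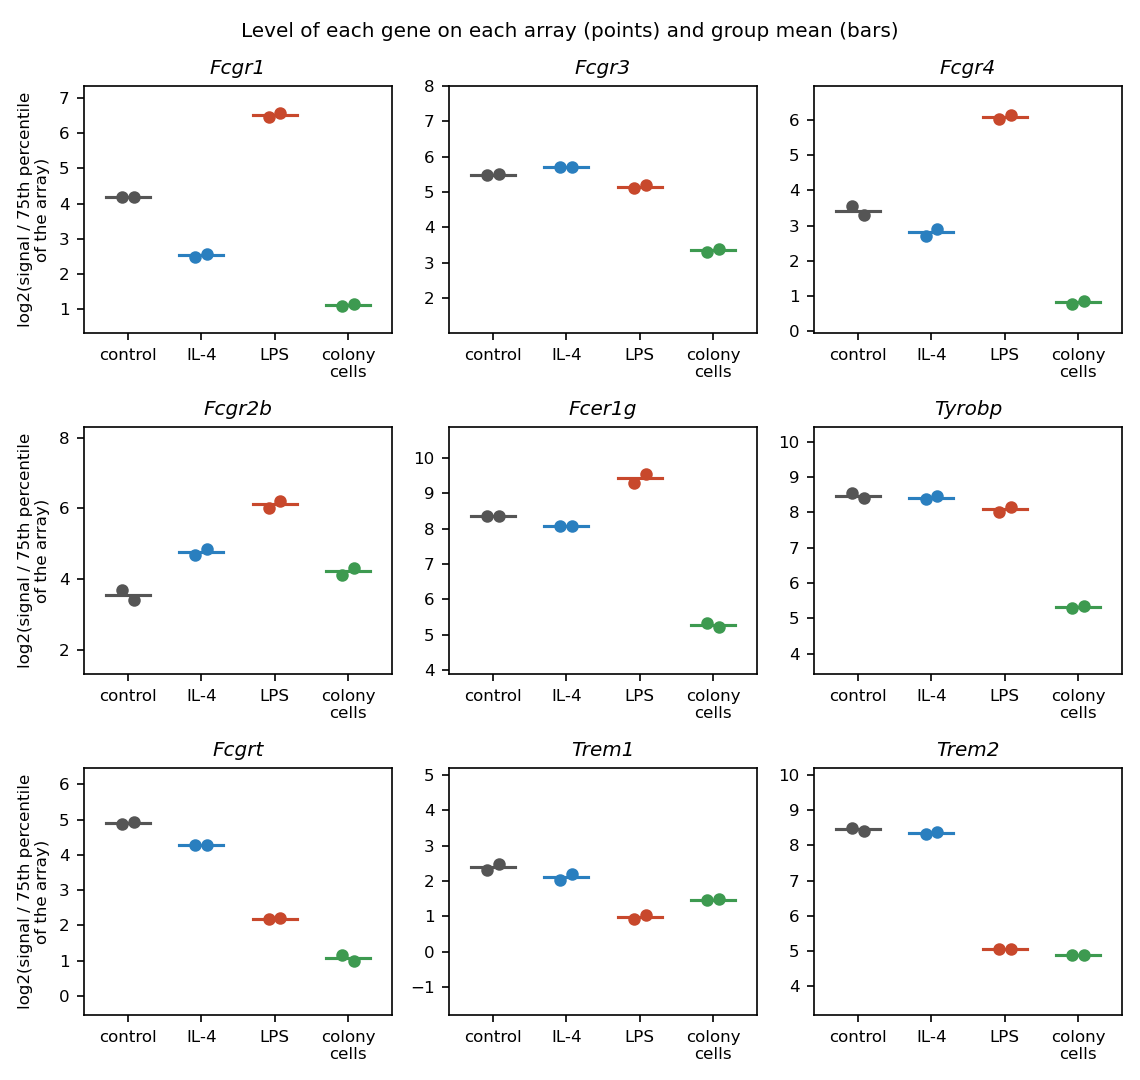
Level of each of the 9 genes on each array, as log2 of signal over the array's 75th percentile (vertical axis), in control, IL-4, LPS and colony cells (horizontal axis). Points are arrays, 2 a group, and bars are group means. The vertical axes span the same number of log2 units but start at different levels, since probes of different genes are not compared. LPS is the highest group for Fcgr1, Fcgr4, Fcgr2b and Fcer1g, and colony cells are the lowest for all but Fcgr2b and Trem1.

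Fcgr1 encodes the high-affinity IgG receptor. Its level was 4.18 and 4.17 in the control arrays, 2.49 and 2.57 with IL-4, 6.45 and 6.57 with LPS, and 1.10 and 1.14 in colony cells. No groups overlapped, and the order from high to low was LPS, control, IL-4 and colony cells, each step passing the test. LPS raised it 5.03-fold (log2 difference 2.33, SE 0.07, limma adjusted p = 8.7e-06). IL-4 lowered it by 1.65 on the log2 scale (SE 0.07, limma adjusted p = 2.0e-04), and only 0.89% of genes tested had a lower difference in that comparison. Between LPS and IL-4 the gap was 15.7-fold, the widest of the 9 genes for that pair.

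Fcgr4 encodes an activating receptor for mouse IgG2 antibodies, restricted to myeloid cells. It stood at 3.54 and 3.30 in control, 2.72 and 2.90 with IL-4, 6.01 and 6.12 with LPS, and 0.78 and 0.86 in colony cells. Here too no groups overlapped, and the groups fell in the same order as for Fcgr1. LPS raised it 6.27-fold (log2 difference 2.65, SE 0.12, limma adjusted p = 2.4e-05). With IL-4 it fell by 0.61 (SE 0.12, limma adjusted p = 0.019), a call lost on median centring (adjusted p = 0.052), and without control replicate 1 (0.064), IL-4 replicate 1 (0.11) or IL-4 replicate 2 (0.061).

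Fcgr3 encodes the low-affinity activating receptor that Fcgr2b most resembles outside the cell. Its levels were 5.47 and 5.50 in control, 5.71 and 5.69 with IL-4, 5.10 and 5.19 with LPS, and 3.30 and 3.39 in colony cells. The 3 macrophage groups lay close together, with LPS lowest, and colony cells lay far below them. LPS lowered it by 0.34 (SE 0.07, limma adjusted p = 0.0094), or by 0.42 relative to the median of all genes. The IL-4 difference of 0.22 (95% interval 0.04 to 0.39) did not pass (limma adjusted p = 0.097). Control and IL-4 are thus neighbours in order that did not differ by the test, although it passed with normexp (adjusted p = 0.042) and with an intensity trend in the variances (0.038). Of the 3 activating receptors, then, LPS raised Fcgr1 and Fcgr4 and lowered Fcgr3.

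Fcgr2b is the inhibitory receptor. Its probe was spotted 10 times on each array, with a within-array SD of 0.06 to 0.08 on the log2 scale. Levels were 3.69 and 3.40 in control, 4.68 and 4.86 with IL-4, 6.02 and 6.21 with LPS, and 4.12 and 4.32 in colony cells. Every control array was below every other array, and LPS was highest, so this gene had its lowest level where Fcgrt had its highest. The means of Trem1, Trem2 and Tyrobp were also highest in control, but the test did not separate them from IL-4. LPS raised it 5.93-fold (log2 difference 2.57, SE 0.14, limma adjusted p = 5.9e-05) and IL-4 2.33-fold (1.22, SE 0.14, limma adjusted p = 0.0044). Only 2.00% of genes tested had a higher difference with IL-4. Colony cells were 1.59-fold above control (0.67, SE 0.14, limma adjusted p = 0.0077). The Fcgr3 probe fell with LPS while the Fcgr2b probe rose. Whether Fcgr2b RNA adds to the signal of the Fcgr3 probe was not tested, which also limits ratios of these 2 probes.

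**Figure D2:**
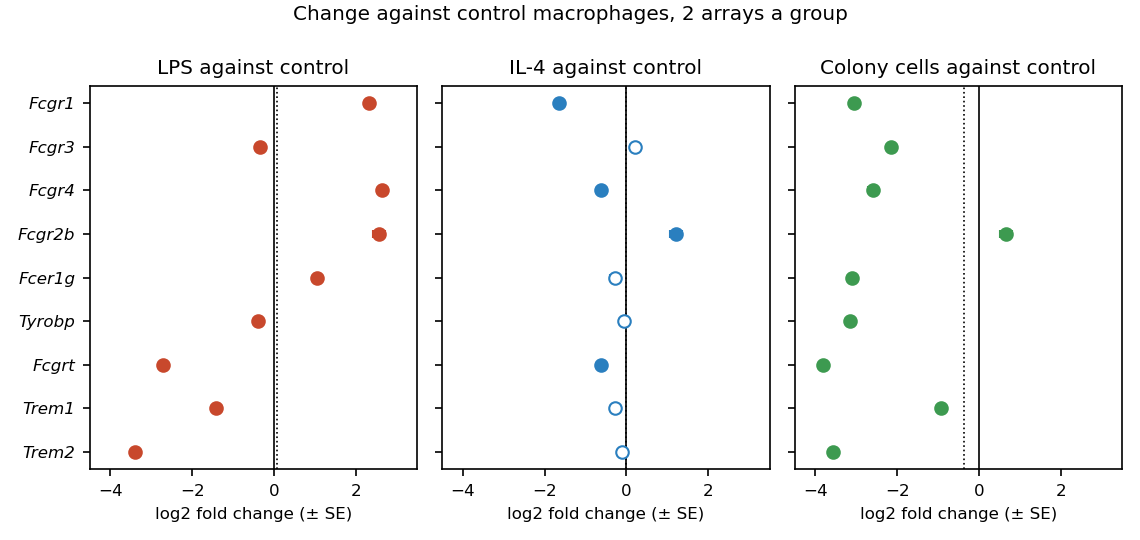
Difference of each gene from control macrophages on the log2 scale (horizontal axis) for LPS, IL-4 and colony cells, with genes on the vertical axis. Points are limma estimates from 2 arrays a group with their SE as bars, filled where the adjusted p is under 0.05. The dotted line is the median of all genes tested. LPS spreads the genes from -3.40 for Trem2 to 2.65 for Fcgr4, and in colony cells Fcgr2b alone of the 9 lies above 0.

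Ratios of 2 genes on the same array do not depend on a constant that scales the array, and they show which members changed unequally. Quantile normalization and background correction can move such ratios, and were not run on them. The ratio of Fcgr2b to Fcgr1, relative to its control mean, was 7.05 and 7.55 on the IL-4 arrays, 1.14 and 1.21 on the LPS arrays, and 12.6 and 14.0 in colony cells. LPS thus moved the inhibitory and the high-affinity activating receptor nearly alike, while the ratio lay towards Fcgr2b on both IL-4 and both colony arrays. A ratio does not remove differences in cell types between groups, and their part in it was not tested. Against Fcgr4 the pattern was the same, with 3.56 and 3.57 for IL-4, 0.918 and 0.972 for LPS, and 9.22 and 10.1 for colony cells. Against Fcgr3 it was not: the ratio was 1.87 and 2.15 with IL-4, 7.22 and 7.80 with LPS, and 6.76 and 7.29 in colony cells. With LPS, then, Fcgr2b stayed near its control ratio to Fcgr1 and Fcgr4 but not to Fcgr3. These ratios are descriptions of 2 arrays a group and were not tested.

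**Figure D3:**
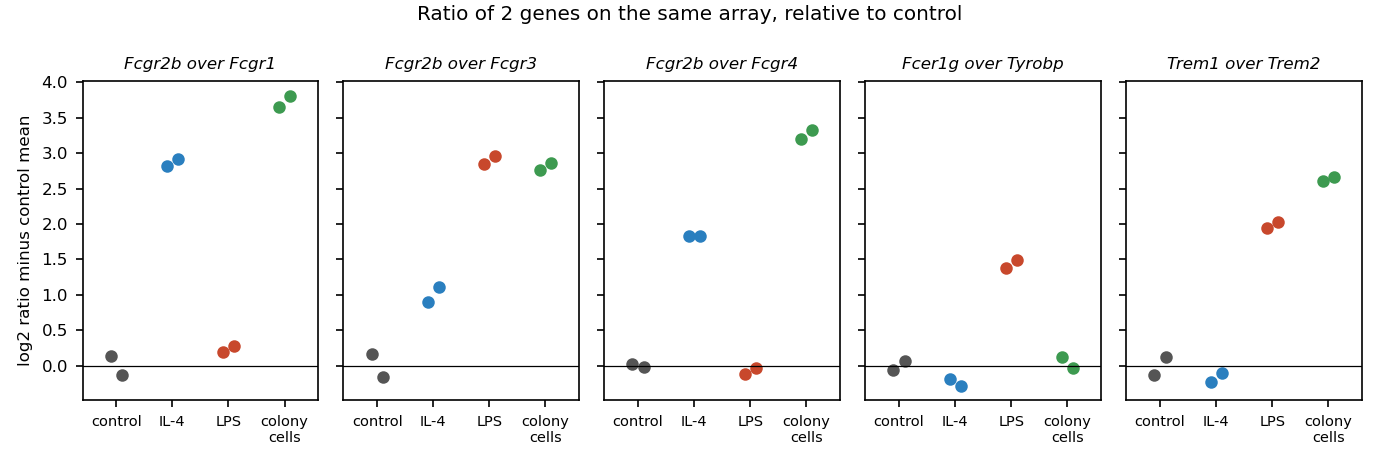
Ratio of a pair of genes on the same array, as log2 minus the mean of the control arrays (vertical axis), by group (horizontal axis), with 1 point per array. The Fcgr2b ratio to Fcgr1 and to Fcgr4 stays near 0 with LPS and is above 1.8 with IL-4, while its ratio to Fcgr3 is above 2.8 with LPS. Fcer1g over Tyrobp is raised on the LPS arrays, and Trem1 over Trem2 on the LPS and colony arrays.

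Of the 2 ITAM adaptors, Fcer1g moved with LPS in the direction of the receptors that rose, and Tyrobp did not. Fcer1g was at 8.37 and 8.37 in control, 8.09 and 8.07 with IL-4, 9.30 and 9.55 with LPS, and 5.32 and 5.21 in colony cells. LPS was highest and colony cells lowest, with no overlap between any groups. LPS raised Fcer1g 2.07-fold (log2 difference 1.05, SE 0.10, limma adjusted p = 4.7e-04). The IL-4 difference was -0.29 (95% interval -0.55 to -0.04) and did not pass (limma adjusted p = 0.11), so control and IL-4 were not separated by the test.

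Tyrobp, the partner of Trem1 and Trem2, stood at 8.55 and 8.40 in control, 8.38 and 8.46 with IL-4, 8.02 and 8.16 with LPS, and 5.30 and 5.35 in colony cells. The control and IL-4 arrays overlapped, and their difference of -0.06 (95% interval -0.28 to 0.17) did not pass (limma adjusted p = 0.73). Its sign turned with quantile normalization (0.0043) and without control replicate 1 (0.015). LPS lowered Tyrobp by 0.38 (SE 0.09, limma adjusted p = 0.014). That call was lost without control replicate 1 (adjusted p = 0.061) or LPS replicate 1 (0.057). The ratio of Fcer1g to Tyrobp, relative to control, was 2.61 and 2.81 with LPS, 0.879 and 0.822 with IL-4, and 1.09 and 0.979 in colony cells. The 2 adaptors fell together in colony cells and moved apart with LPS.

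Fcgrt, the heavy chain of the neonatal Fc receptor, was at 4.86 and 4.92 in control, 4.28 and 4.27 with IL-4, 2.17 and 2.21 with LPS, and 1.15 and 1.00 in colony cells. Each group lay apart from the next, in the order control, IL-4, LPS and colony cells. LPS lowered Fcgrt 6.51-fold (log2 difference -2.70, SE 0.08, limma adjusted p = 5.8e-06), further than 98.1% of genes. With IL-4 it fell by 0.62 (SE 0.08, limma adjusted p = 0.0050). On median centring and in the deposited table that adjusted p was 0.051. Its partner B2m, which also serves MHC class I, did not follow it with LPS or IL-4. The B2m difference was 0.48 with LPS (SE 0.12, limma adjusted p = 0.018) and 0.00 with IL-4 (limma adjusted p = 0.99). In colony cells both genes were lower than in control, with differences of -0.83 for B2m (limma adjusted p = 0.0014) and -3.81 for Fcgrt. The rise of B2m with LPS was not called on median centring (adjusted p = 0.073), in the deposited table (0.057), or without control replicate 1 (0.064) or control replicate 2 (0.071), and the sign of its IL-4 difference turned without control replicate 2 or IL-4 replicate 2.

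Trem2 had the largest fall of the 9 genes with LPS. Its levels were 8.50 and 8.41 in control, 8.32 and 8.37 with IL-4, 5.05 and 5.07 with LPS, and 4.90 and 4.88 in colony cells. Control and IL-4 were high, and LPS and colony cells were low, with more than 3 log2 units between the pairs. LPS lowered it 10.5-fold (log2 difference -3.40, SE 0.07, limma adjusted p = 2.6e-06), and 0.988% of genes tested had a lower difference. The IL-4 difference was -0.11 (95% interval -0.28 to 0.06, limma adjusted p = 0.33). Colony cells were 11.9-fold below control (-3.57, SE 0.07, limma adjusted p = 7.6e-07).

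Trem1 was at 2.31 and 2.48 in control, 2.02 and 2.20 with IL-4, 0.93 and 1.05 with LPS, and 1.46 and 1.48 in colony cells. It was lowest with LPS, the only member with its lowest level there, and control and IL-4 were highest. LPS lowered Trem1 by 1.41 (SE 0.10, limma adjusted p = 1.4e-04) at 24 hours, the single time measured. The IL-4 difference of -0.28 (95% interval -0.53 to -0.03) did not pass (limma adjusted p = 0.12), except with an intensity trend in the variances (0.049). Since Trem2 fell further than Trem1, the ratio of Trem1 to Trem2 relative to control was 3.84 and 4.10 with LPS and 6.12 and 6.35 in colony cells. With IL-4 it was 0.848 and 0.929.

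IL-4 and LPS set against each other separated all 9 genes. Fcgr3, Fcgrt, Tyrobp, Trem1 and Trem2 were higher with IL-4 and the other 4 higher with LPS, where 25.6% of all genes were called higher and 26.8% lower with IL-4. After Fcgr1, the widest gaps were 9.74-fold towards IL-4 for Trem2 and 9.59-fold towards LPS for Fcgr4. Fcgrt was 4.24-fold higher with IL-4 and Fcgr2b was 2.54-fold higher with LPS. The smallest was Tyrobp, 0.33 on the log2 scale (SE 0.09, limma adjusted p = 0.027). That call was lost without IL-4 replicate 1 (adjusted p = 0.074), IL-4 replicate 2 (0.13), LPS replicate 1 (0.099), or either colony array (0.052).

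In colony cells the labelled cell type was set against its markers first. Of 10 macrophage markers 9 were lower than in control macrophages (median difference -3.57), and their summed level was 181 to 186 multiples of the array's 75th percentile against 2099 to 2106. Itgam, named after its value was seen, was the 1 that rose. Of 20 genes expressed across leukocytes 19 fell, with a median of -3.06, or 12% of control, while Srgn, also named after its value was seen, rose. Mesothelial and stromal markers moved the other way: 9 of 10 were higher, and their summed level was 587 to 608 in colony cells against 0.540 to 0.672 in control. Msln, Upk3b, Wt1, Dcn and Lum were not well above background in control. Of 10 mast cell and basophil markers tested 9 were higher (summed level 8.96 to 9.0 against 1.04 to 1.19), and in control Cpa3, Mcpt4, Mcpt8, Cma1 and Gata2 were not above background, while Tpsab1 was not above it in either group. Their summed level with LPS, 8.43 to 9.42, overlapped that in colony cells, with 2 of the 10 higher than control and 3 lower. Hdc, named after its value was seen, was 6.09 log2 units higher with LPS than in control. Of the macrophage markers 3 were higher and 7 lower with LPS (summed level 1542 to 1793), and of the leukocyte genes 11 were higher and 4 lower. In colony cells against control, neutrophil markers were mixed, with 4 higher and 2 lower of 12 (median difference 0.55). Their summed level was 151 to 167 in colony cells against 208 to 219 in control. In the same comparison 0 of 4 B cell markers rose and 3 fell. Of 7 endothelial markers 2 were higher and 4 lower there, and Cdh5 and Emcn were not above background in colony cells. The part of these cell types in the members' differences was not tested.

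Beside the leukocyte median of -3.06, Fcgr1 (-3.06, SE 0.07), Fcer1g (-3.10, SE 0.10) and Tyrobp (-3.15, SE 0.09) differed from control by nearly the same amount, which left 12%, 11.6% and 11.3% of their control level. Trem2 (8.43% of control) and Fcgrt (7.11%) fell further than 14 and 16 of the 20 leukocyte genes. Fcgr4 (16.5%) and Fcgr3 (22.6%) fell less than the median leukocyte gene, with 7 and 5 of the 20 falling less still. Trem1 kept 52.6% of its control level (log2 difference -0.93, SE 0.10, limma adjusted p = 4.2e-04), and Fcgr2b was at 159%. Set against the leukocyte median, Trem1 lay 2.13 and Fcgr2b 3.73 log2 units higher, and 1 leukocyte gene lay above each. The distance of each member from that median is a description, with no test.

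**Figure D4:**
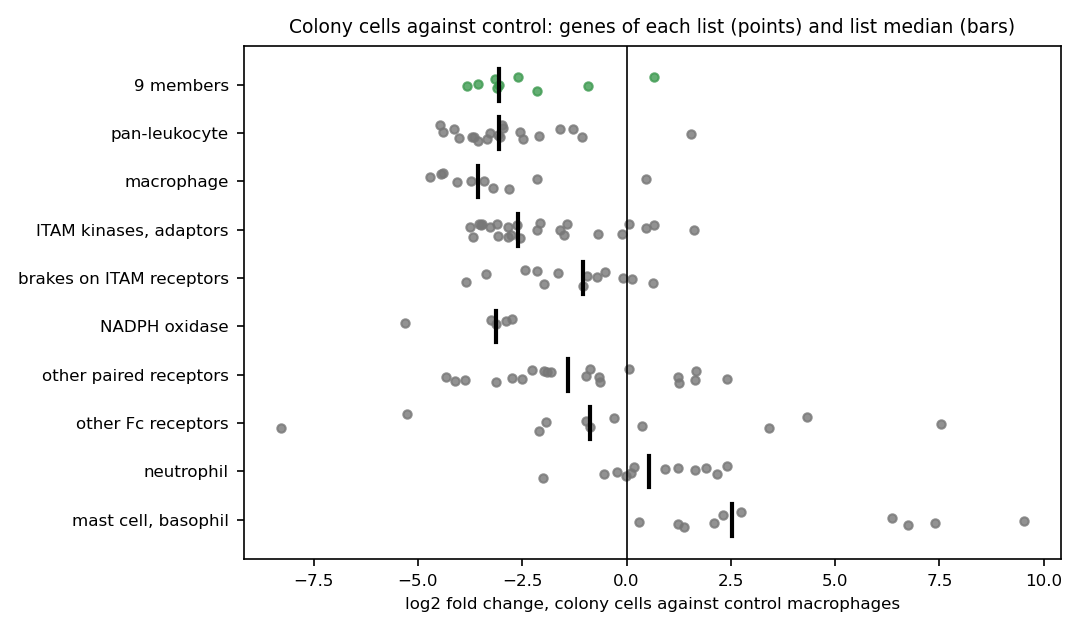
Difference of colony cells from control macrophages on the log2 scale (horizontal axis) for the 9 genes and 9 gene lists (vertical axis). Each point is a gene and each bar a list's median; points of genes not above background in 1 group are measured values and not bounds. The 9 genes and the leukocyte list have medians near -3.06, and mast cell and basophil markers have a median of 2.53.

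Against the other macrophage groups, colony cells were again mostly lower. All 9 genes were lower than with IL-4, where 24.2% of genes tested were called higher and 47.4% lower. Fcgr2b had the smallest of these gaps, -0.55 (SE 0.14, limma adjusted p = 0.016). It was not called with quantile normalization (-0.06, adjusted p = 0.68), without IL-4 replicate 2 (0.087) or without colony replicate 1 (0.087). Against LPS, 7 were lower, Trem1 was higher and Trem2 was not called, beside 26.6% of genes called higher and 49.8% lower. Fcgr1 was 42.0-fold and Fcgr4 38.0-fold below LPS. Trem1 was 1.40-fold above LPS (log2 difference 0.48, SE 0.10, limma adjusted p = 0.0061). Trem2 differed by -0.17 (95% interval -0.34 to -0.00, limma adjusted p = 0.060), so LPS and colony cells were neighbours in its order that the test did not separate. An intensity trend in the variances put it past the threshold (adjusted p = 0.040), and quantile normalization turned it to 0.52 (adjusted p = 4.5e-04). Quantile normalization also moved Fcgr2b against LPS from -1.90 to -1.29 and Fcgr3 from -1.80 to -1.18.

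The receptors act through shared kinases. Counts of this and the later lists stand beside the shares of all genes tested. Those were 29% called higher and 25.5% lower with LPS, 9.88% and 8.96% with IL-4, and 24.7% and 46.6% in colony cells. The medians over all genes were 0.08, -0.01 and -0.35 in that order, and no list was tested against these values. Of 24 kinases and adaptors downstream of ITAM receptors, 11 rose and 6 fell with LPS (median 0.17), 5 rose and 7 fell with IL-4 (median -0.06), and 2 rose and 19 fell in colony cells (median -2.60). The LPS count depended on the scaling, with 9 higher and 8 lower under quantile normalization and 9 higher and 6 lower on median centring, where the list median was -0.021. On median centring 5 were higher and 2 lower with IL-4. Among the largest changes with LPS were those of Malt1 (2.54), a scaffold of NF-kB signalling, the Src-family kinase Fgr (2.40) and the adaptor Lcp2 (1.77). With IL-4, Fyn (2.01), Malt1 (1.39) and the kinase gene Prkcd (1.33) rose. Syk, the kinase that ITAMs recruit, fell in colony cells (-3.69), further than the leukocyte median. Nfatc1 (-3.75), Vav3 (-3.54) and Blnk (-3.49) were the other large falls there.

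Among 13 phosphatases and other brakes on these receptors, 8 rose and 2 fell with LPS (median 0.58), 4 rose and 3 fell with IL-4 (median -0.01), and 1 rose and 9 fell in colony cells (median -1.05). With quantile normalization 5 were higher and 3 lower with LPS. Ubash3b (1.28), Dok3 (1.26) and Ptpn6 (1.16), which encodes the phosphatase SHP-1, rose with LPS. Pag1 was above background with LPS only, where it was at least 2.18-fold higher than control, but its difference was -0.085 with normexp and it was not called there or with quantile normalization. Dok3 fell with IL-4 (-1.31) while Dok2 (2.01), Cblb (1.29) and Ubash3b (1.01) rose. Inpp5d, which encodes the phosphatase that Fcgr2b recruits, fell by 3.38 in colony cells, and Ptpn6 differed by -3.85. Fcgr2b rose there while the phosphatase gene fell, and the Src-family kinase gene Fgr was 1 of the 2 kinase-list genes that rose (0.48). The subunits of the phagocyte NADPH oxidase, which Fc receptors activate, split in the same way as Fcgr1 for the named genes Cybb and Ncf1. Cybb differed from control by 1.80 with LPS, -0.72 with IL-4 and -5.32 in colony cells, and Ncf1 by 1.57, -0.79 and -2.89. Ncf4 rose with LPS (0.78), fell in colony cells (-3.14) and, unlike Fcgr1, Cybb and Ncf1, rose with IL-4 (0.45, limma adjusted p = 0.017). Over the 5 subunits, 3 rose and 0 fell with LPS, 1 rose and 2 fell with IL-4, and 0 rose and 5 fell in colony cells (medians 0.78, 0.18 and -3.14). With IL-4 the calls of Cybb and Ncf4 were lost on median centring (adjusted p = 0.051 and 0.069) and in the deposited table (0.052 and 0.058). Both were also lost without IL-4 replicate 1 (differences -0.70 and 0.49). That of Ncf4 was lost as well without control replicate 2 (0.41) or IL-4 replicate 2 (0.41).

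Of 12 other Fc receptors and Fc-like receptors listed, 11 were tested: 4 rose and 4 fell with LPS, 0 rose and 2 fell with IL-4, and 3 rose and 6 fell in colony cells, with medians of 0.30, -0.09 and -0.86. Fcrls, a macrophage Fc receptor-like gene, differed from control by -2.61 with LPS and -5.25 in colony cells. Fcrl1, best known from B cells, fell with LPS (-3.0) and IL-4 (-2.76), and was not above background in colony cells, at least 151-fold below control. Here "at least" sets the brighter group against the lowest signal that counted as well above background on the dimmer arrays. Fcer1a and Ms4a2, the alpha and beta chains of the high-affinity IgE receptor of mast cells, which also uses Fcer1g, were not above background in control. In colony cells they were at least 41.1-fold and 5.31-fold higher (limma adjusted p = 0.0098 and 0.013), beside the mast cell markers given above. The Ms4a2 difference was 4.32 on the log2 scale and 0.37 with normexp, where its call was lost (adjusted p = 0.051), and it was also lost without either control array or either colony array (0.053 to 0.059).

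Of 20 other TREM-family and paired receptors and adaptors, 11 rose and 7 fell with LPS (median 0.84), 2 rose and 5 fell with IL-4 (median -0.14), and 5 rose and 14 fell in colony cells (median -1.40). Trem3, a neighbour of Trem1 in the family, rose by 7.10 with LPS while Trem1 and Trem2 fell. The paired receptors Pilra and Pilrb1 rose with LPS (5.75 and 4.87) and fell with IL-4 (-2.98 and -3.61), as did Sirpb1a and Cd33 with IL-4 (-1.19 and -1.22). Cd300a rose with LPS (3.92) and fell in colony cells (-4.11). Hcst, the adaptor DAP10 that can replace or join Tyrobp, fell by 3.12 in colony cells, close to the -3.15 of Tyrobp. Cd300lb (-4.32) and the inhibitory receptor gene Sirpa (-3.87) fell further.

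The genes known to surround Trem2 in lipid-handling phagocytes followed it only in part. Of 16, 2 rose and 11 fell with LPS (median -0.84), 6 rose and 1 fell with IL-4 (median -0.10), and 4 rose and 12 fell in colony cells (median -1.21). With LPS, Clec7a (-5.19), Cd9 (-2.22) and Gpnmb (-2.13) fell with Trem2, but Cst7 rose by 4.69. With IL-4, where Trem2 was not called, Itgax (5.08), Cst7 (1.57), Clec7a (1.21) and Cd9 (1.13) rose. In colony cells the lipid carrier gene Apoe, whose product Trem2 binds, fell by 3.81, and Clec7a (-3.70) and Gpnmb (-3.01) fell too. Clu, another lipid carrier that Trem2 binds, was 8.78 log2 units above control there, beside the mesothelial and stromal markers.

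The genes whose profile over the 8 arrays lay closest to each member were found by the root mean square (RMS) distance between log2 levels centred on their mean. For Fcgr1 they were Nod2 (0.18) and Oas1g (0.25), and for Fcgr4 they were Dhx58 (0.20) and Oas1g (0.20), so the 2 receptors share a neighbour. For Fcgr2b they were Fgr (0.16) and Cycs (0.21). Tyrobp was closest to Il10rb (0.06) and Fes (0.10), and Fcer1g to Armc7 (0.09) and Tmcc3 (0.11). Fcgrt was closest to Ago4 (0.15) and Pdxk (0.16), and Trem2 to Tmem37 (0.20) and Hpse (0.22). The closest to Fcgr3 were Ctdsp1 (0.06) and Otulin (0.07), and to Trem1 they were Zfp362 (0.08) and Anxa9 (0.09). Within 0.25 of the member lay 1 gene for Fcgr1, 3 for Fcgr2b, 3 for Trem2 and 6 for Fcgr4, 16 for Fcgrt, 25 for Fcer1g, 77 for Tyrobp, 179 for Fcgr3 and 246 for Trem1. Such a count depends on how far a profile itself spreads, which ranged from an RMS of 0.55 for Trem1 to 2.01 for Fcgr1. The arrays come from 4 groups, so a distance mostly compares 4 group levels.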

How the data were processed

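The 9 genes and the gene lists were chosen with earlier results of these data known. Per the file headers, the software behind the scanner files was Agilent Feature Extraction 10.7.3.1, and their spot signal intensity was background-subtracted and detrended within each array, with no scaling between arrays. Other deposited columns hold a 0 or a 1 for each spot, with which the software flags, among others, signal well over background and spots of uneven pixels. The deposited value table is on the log2 scale. Its columns followed the scanner's log2 signal with r of at least 0.99996 after subtraction of a constant for each array, and their medians were 2.89 and 2.96 for control arrays, 2.93 and 2.93 for IL-4, 2.87 and 2.53 for LPS, and 2.91 and 2.88 for colony cells. How that constant was set and how probes were kept are not given in the sources used here. The submitters' processing notes name Partek 6.4 and RMA but give no role for either.

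Uneven or outlying spots were left out, the processed signal was taken to log2 minus the array's 75th percentile, and spots of a probe were averaged. A filter kept 39421 probes that both arrays of some group showed well above background, and a gene was given by its brightest probe (26514 genes). Names were updated through RefSeq. limma 3.58.1 in R 4.3.3 fitted 4 group means over 8 arrays, with Benjamini-Hochberg adjustment over all genes tested. The fit was also run on simulated arrays with independent normal errors and known changes, which checks the code and not the calls made here. The number of arrays limits the precision. Alternatives were normexp (offset 50), quantile normalization, median centring, the deposited table, no filter on dim probes, a variance trend, the mean of a gene's probes, a replicate block and leaving out each array. Named list genes are up to 4 called genes with the largest change per list and comparison. Another 7 lists of cell type markers beside those of macrophages, leukocytes and mast cells were used for the check of the labelled cell types. Of those, dendritic, NK and T cell, and megakaryocyte markers gave, in colony cells against control, 2 higher and 2 lower of 5, 1 higher and 2 lower of 3, and 4 higher and 1 lower of 5. A promoter motif and a gene of the kinase list are not reported here.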

Additional observations from a re-analysis of the deposited data

How the results depend on the processing

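Of 864 values of the 9 genes under alternatives (6 comparisons), 841 kept their direction and their side of the threshold, 16 fell below it, 4 passed it and 3 turned. The turned ones were Tyrobp with IL-4 under quantile normalization (0.0043) and without control replicate 1 (0.015, in a leave-one-out range of -0.13 to 0.015), and Trem2 between colony cells and LPS under quantile normalization (0.52). Many of the 864 values could not turn. With 1 probe a gene, the unfiltered fit, the variance trend, the mean of a gene's probes and the replicate block leave each difference as it was. So does leaving out an array of a group outside the comparison. In those settings only the adjusted p could move. Among list genes, Pag1 with LPS turned to -0.085 with normexp, and B2m with IL-4 to -0.0038 without control replicate 2 and -0.040 without IL-4 replicate 2 (leave-one-out range -0.040 to 0.048). For IL-4 against control, 4994 genes were called, 2601 on median centring and 2566 in the deposited table, with 1941 to 5254 when arrays were left out in turn: 3006 without control replicate 2, 2114 without IL-4 replicate 1 and 1941 without IL-4 replicate 2. Of the 9 genes, 4 were called there, 2 on median centring, 5 with normexp, 6 with an intensity trend in the variances (where 6280 genes were called) and 3 to 4 when arrays were left out. An arm left with 1 array is assumed to vary like the other groups. Same-numbered arrays did not deviate together (r of deviations from -0.16 to 0.05). Each group gives only 1 set of deviations, so this cannot settle whether same-numbered samples share a source. A replicate block called 3800 genes for IL-4 and changed no call of the 9 genes. With the colony numbers crossed, added after seeing the data, 18541 genes were called in colony cells against control, beside 18476 with the block as numbered and 18908 without. The causes were not tested.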
